A study of Mus musculus with 6 samples.

Results

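The genes described here encode contact and guidance signals: the ephrins and their Eph receptors, the semaphorins with their plexin and neuropilin receptors, and the Slit ligands with their Robo receptors. They were taken from the deposited count table by gene name, as genes called Epha, Ephb, Efna, Efnb or Sema with a number, Plxna to Plxnd, Nrp1, Nrp2, Robo1 to Robo4 and Slit1 to Slit3. Of 48440 genes in the table, 63 matched, and the 52 with a total of at least 60 reads over the 6 libraries are called the guidance genes below. Their totals ran from 70 to 21295 reads, with a median of 882. Just inside the minimum lay Robo4 with 70, Efna1 with 73 and Sema6d with 75 reads, and just outside it Sema3a with 55 and Sema3d with 52.

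Polyadenylated RNA was sequenced from 6 clones of 1 male mouse iPSC line (iPSCs are induced pluripotent stem cells, here made by reprogramming wild-type fibroblasts of the embryo). The 3 Tet1 knockout clones (KO1, KO2 and KO3, clones 14, 30 and 33) are wt/wt;GFP/wt and, after Cas9 editing of Tet1, mut/mut. The 3 non-targeted clones (NT1, NT2 and NT3, clones 49, 51 and 52) are wt/wt;GFP/wt. The strain label of both groups joins B6- Tet1tm1Kohx with the reporter background B6;CBA-Tg(Pou5f1-EGFP)2Mnn/J. Both groups carry the same protocol: 14 passages in KSR medium, transfection with Cas9 ribonucleoprotein, a guide RNA against Tet1 and an ssODN, 12 h of HRD enhancer, then picking and 4 further passages. The clones grew on mouse embryonic fibroblasts (MEFs) as feeders and were separated from them before extraction. The labels do not say how the non-targeted clones kept Tet1 unedited. Each library is 1 clone of a single parental line, so the p-values set the group difference against the spread between these clones.

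Ephrins are membrane-bound ligands, held by a lipid anchor (ephrin-A) or a transmembrane domain (ephrin-B), that bind Eph receptor tyrosine kinases on neighbouring cells and signal into both cells. Semaphorins are secreted (class 3) or membrane-attached ligands of the plexins, and most class 3 semaphorins need a neuropilin as co-receptor, while Slits are large secreted proteins that act through Robo receptors. These systems are best known from axon guidance and blood vessel growth, where they steer cells by changing the actin skeleton.

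Library totals ran from 11937909 to 13672879 reads in KO and from 12564763 to 16189554 reads in NT. Tet1 itself had 365, 231 and 288 CPM (counts scaled to a common library size, CPM) in KO1, KO2 and KO3, against 1158, 966 and 1034 CPM in NT1, NT2 and NT3. Its log2 fold change was -1.84 ± 0.16 (SE), with an edgeR adjusted p = 0.0703 and a DESeq2 adjusted p = 9.06e-20. Over all genes edgeR's quasi-likelihood test, the main test, called 0 of 14664 (0%) at an adjusted p of 0.05, with 3640 (24.8%) at an unadjusted p under 0.05. DESeq2, an alternative, called 1247 of 13677 (9.12%), and limma voom called 1 gene. KO1 stood nearer to NT than to the other knockout clones, with log2 CPM correlations across genes of 0.984 to 0.986 with NT against 0.973 with KO2 and 0.958 with KO3. The 20 pluripotency markers were present throughout, at summed levels of 4453 to 7003 CPM in KO and 6768 to 7556 CPM in NT.

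The guidance genes lay higher in Tet1 knockout clones more often than lower, with the tightest difference in Epha2 and the largest fitted one in Efnb1. In DESeq2, 11 of the 48 guidance genes with an adjusted p rose (22.9%, beside 5.77% of all genes) and 2 fell (4.17%, beside 3.35%). Those that rose were the ligands Efna2, Efna5, Efnb1, Efnb2, Sema3e, Sema4c and Sema6b and the receptors Epha2, Epha7, Nrp1 and Plxnb1. Those that fell were the receptors Epha4 and Nrp2. In edgeR 0 of the 51 tested guidance genes passed at an adjusted p of 0.05 (beside 0%), while at an unadjusted p under 0.05 there were 15 higher (29.4%, beside 14% of all genes) and 4 lower (7.84%, beside 10.8%). Among guidance genes limma voom called 0 at an adjusted p of 0.05 and 19 at an unadjusted p under 0.05 (beside 25% of all genes). Efna1 did not pass the filter on low counts. The fitted log2 fold change was above 0 in 42 of the 51 (82.4%, beside 50.3%), with a median of 0.47 beside 0.00 over all genes. Below, log2 fold changes are KO over NT from edgeR with their SE, also where given in brackets without a name, and "rose" and "fell" refer to DESeq2.

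**Figure D1:**
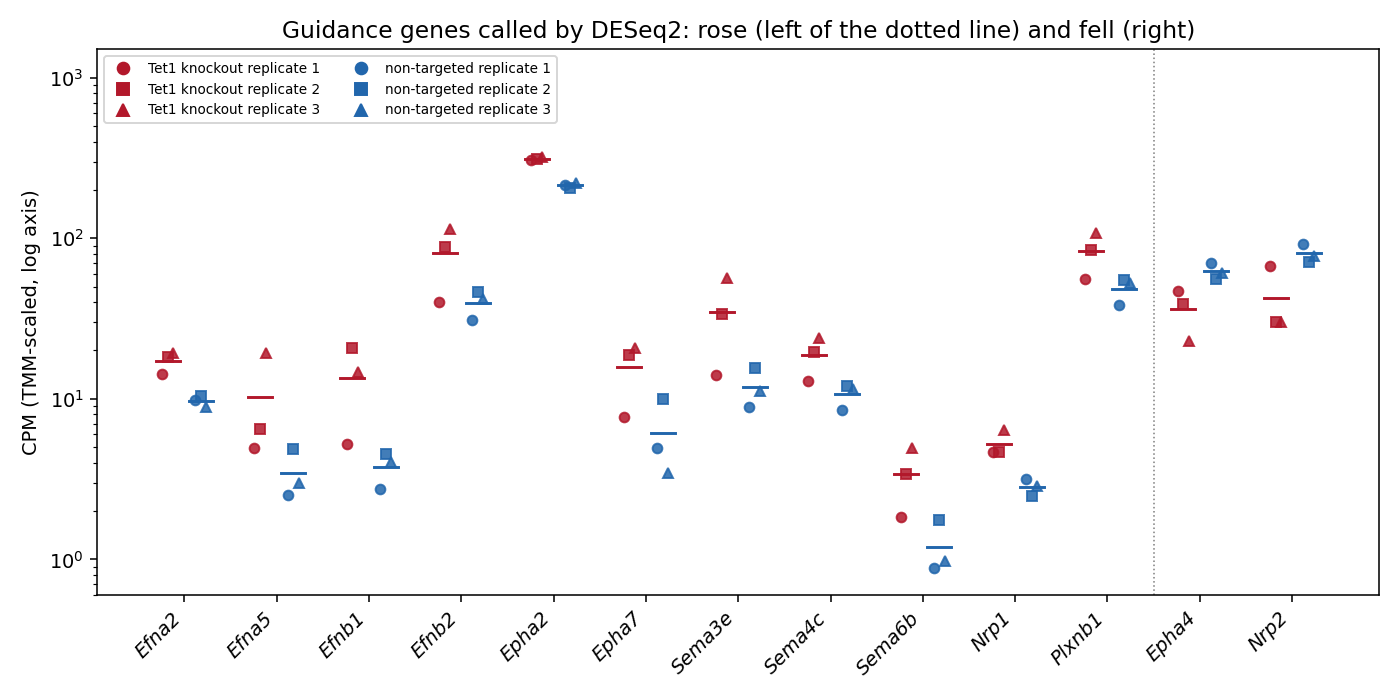
CPM on a log axis of the 13 guidance genes called by DESeq2 in each Tet1 knockout clone (left of each pair) and each non-targeted clone (right), with a marker for each replicate and a bar at the group mean. Epha2 shows the tightest groups, at 306 to 319 CPM in KO and 204 to 220.0 CPM in NT.

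In 15 of the 51 tested guidance genes every KO clone lay above every NT clone (29.4%, beside 14.8% of all genes), and in 5 every KO clone lay below (9.80%, beside 14.7%). The groups overlapped in the other 31. KO1 lay within the NT range in 22 of the 51 (43.1%, beside 40.0% of all genes), KO2 in 7 (13.7%, beside 26.0%) and KO3 in 6 (11.8%, beside 22.0%). The median guidance gene stood 0.09, 0.44 and 0.66 above the NT mean in KO1, KO2 and KO3, in log2(CPM + 0.5), and -0.08, 0.09 and 0.05 from it in NT1, NT2 and NT3. KO3 was the highest of the 6 libraries in 27 guidance genes (52.9%, beside 27.2%), and NT1 the lowest in 22 (43.1%, beside 19.1%).

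**Figure D2:**
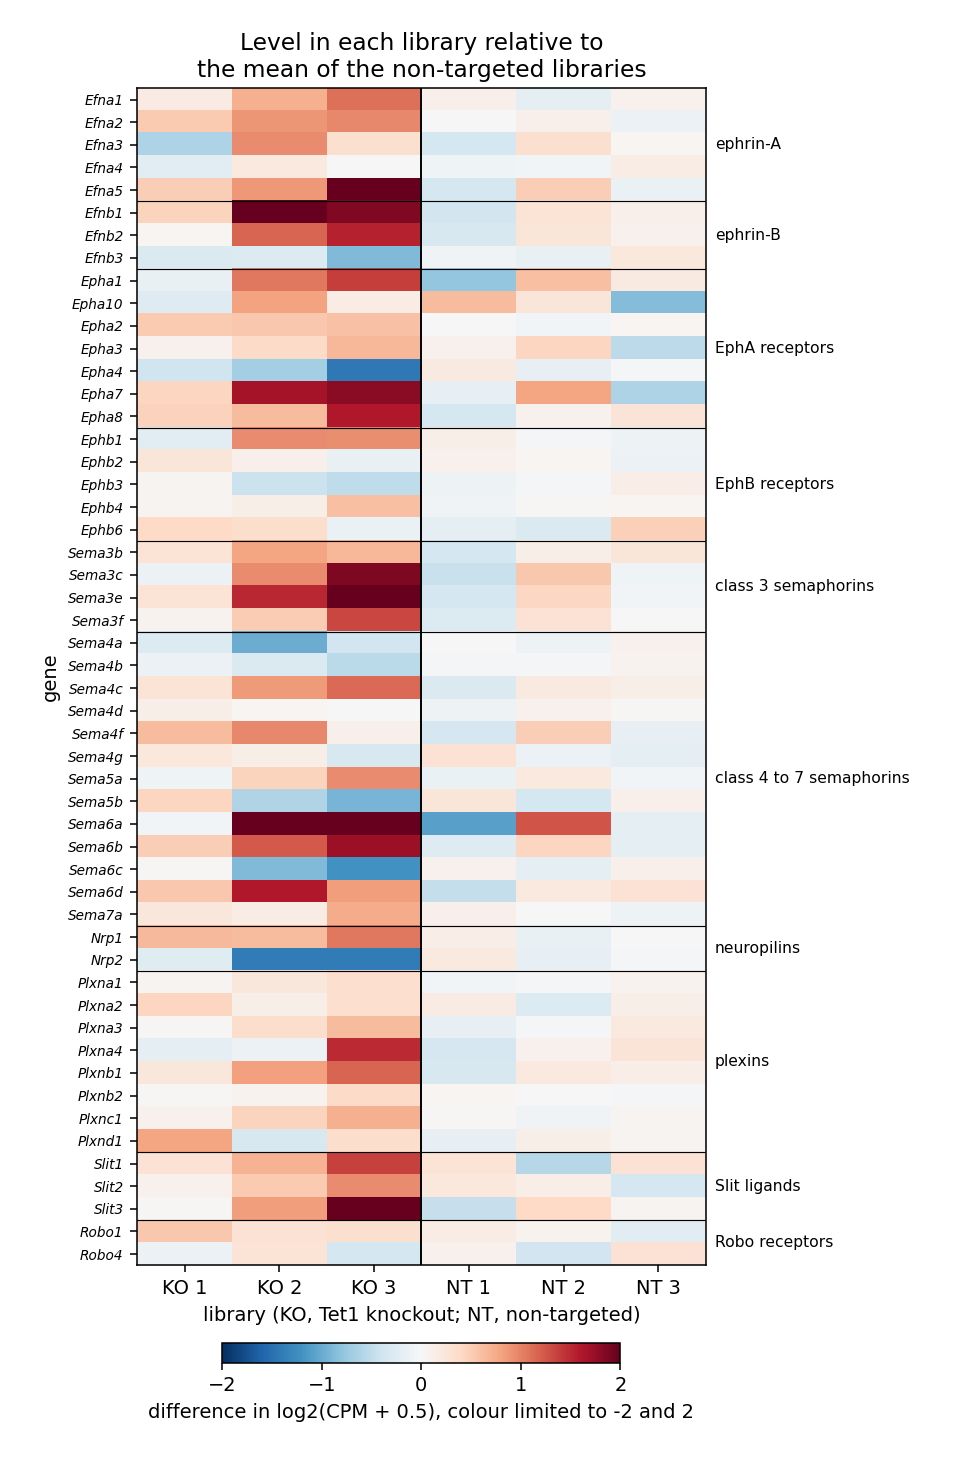
Heat map of the 52 guidance genes (rows, grouped by family) in the 3 Tet1 knockout (KO) and 3 non-targeted (NT) libraries (columns), coloured by the difference in log2(CPM + 0.5) from the NT mean. Red is higher and blue lower, and the median guidance gene stands at 0.09, 0.44 and 0.66 in KO1, KO2 and KO3.

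Most of the DESeq2 calls did not hold when 1 library was left out, and several different libraries had this effect. Epha2 was called in DESeq2 whichever of the 6 libraries was left out, and Efnb1 in 3 of the 6 cases. DESeq2 called 24 guidance genes without KO1 (beside 28.5% of all genes), 1 without KO2 (Epha2, beside 2.13%) and 2 without KO3 (Epha2 and Efnb1, beside 1.89%). It called 1 without NT1 (beside 1.57%) and 1 without NT3 (beside 0.979%), Epha2 in both, and 7 without NT2 (beside 5.52%). The count of guidance genes thus moved with the count over all genes. In edgeR, leaving out KO1 gave 29 calls among 52 guidance genes, 22 higher in KO (42.3%, beside 15.1% of all genes) and 7 lower (13.5%, beside 14%). These 29 included all 13 genes called by DESeq2 from the 6 libraries. Leaving out any other library gave 0 in edgeR. At an unadjusted p under 0.05 edgeR then had 14 of 51 guidance genes without KO2 (beside 16.2% of all genes), 14 of 51 without KO3 (beside 15.6%), 9 of 52 without NT1 (beside 14.1%), 17 of 52 without NT2 (beside 20.5%) and 12 of 52 without NT3 (beside 13.4%).

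Promoters of 3 genes are shown. Epha2 is the receptor that DESeq2 called whichever library was left out. Efna5 has the most CG pairs of the genes that rose, and Epha4 is a receptor that fell. Left-out libraries kept the DESeq2 call of Efna5 in 2 of 6 cases and that of Epha4 in 1 of 6. TET1 binds CpG-rich DNA through its CXXC domain, so the CG pairs are in capitals. Each sequence holds the 250 bases before the RefSeq transcription start, 5′ to 3′ on the gene's strand, from RefSeq on build GRCm38.p6. Epha2 lies on the plus strand (chr4:141300971-141301220), Efna5 on the minus strand (chr17:62881318-62881567) and Epha4 on the minus strand (chr1:77515089-77515338).
Epha2: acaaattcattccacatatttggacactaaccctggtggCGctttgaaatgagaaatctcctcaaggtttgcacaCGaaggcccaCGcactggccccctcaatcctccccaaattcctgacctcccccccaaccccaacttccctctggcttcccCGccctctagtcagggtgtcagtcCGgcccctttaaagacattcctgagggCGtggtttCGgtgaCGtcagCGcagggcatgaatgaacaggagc
Efna5: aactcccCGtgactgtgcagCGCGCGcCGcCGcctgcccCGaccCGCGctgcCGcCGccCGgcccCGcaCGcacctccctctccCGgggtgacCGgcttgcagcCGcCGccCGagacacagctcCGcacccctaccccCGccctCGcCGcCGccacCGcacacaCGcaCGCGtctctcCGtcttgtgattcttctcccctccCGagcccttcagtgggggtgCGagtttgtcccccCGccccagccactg
Epha4: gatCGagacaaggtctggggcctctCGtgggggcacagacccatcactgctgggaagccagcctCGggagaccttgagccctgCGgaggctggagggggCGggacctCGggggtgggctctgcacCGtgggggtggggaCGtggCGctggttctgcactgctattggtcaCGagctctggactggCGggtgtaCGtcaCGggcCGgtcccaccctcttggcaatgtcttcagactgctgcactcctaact
The window holds 9 CG pairs in Epha2, 32 in Efna5 and 14 in Epha4, and CG reads the same on both strands. Of the 52 guidance genes 45 matched the RefSeq table by symbol, and 42 had a start within 1000 bases of that in the deposited table. In these 42 the count ran from 2 to 46 with a median of 16.5, and 34 of them (81.0%) held at least 10, beside a median of 15 and 70.4% in the 13174 windows of genes tested here. The 11 genes that rose held 7 to 32, with a median of 20. The 2 genes that fell, Epha4 and Nrp2, held 14 and 32. Of all 32851 windows in the table, 92.1% held at least 1 CG pair. Neither binding nor methylation was measured in the data used here.

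Among the ephrin-A ligands 2 of 4 tested rose. Efna2 (chromosome 10, 80179482 to 80190010, GRCm38), which binds several EphA receptors, had 14.2, 18.3 and 19.4 CPM in KO and 9.76, 10.48 and 8.90 CPM in NT. All KO values were above all NT values (0.83 ± 0.17; DESeq2 adjusted p = 0.00336; edgeR adjusted p = 0.106). Efna5, which repels axons in topographic maps, had 4.91, 6.45 and 19.3 CPM in KO against 2.502, 4.87 and 2.99 CPM in NT. KO3 stood far above the rest, and KO1 barely above NT2 (1.56 ± 0.55; DESeq2 adjusted p = 0.0366; edgeR adjusted p = 0.154). Without KO3 its log2 fold change was 0.71 and the DESeq2 adjusted p 0.443. Efna4 averaged 11.03 ± 1.61 CPM in KO and 11.01 ± 1.003 CPM in NT (SD, n = 3 each), with overlapping groups. Efna3 gave 2.61, 8.69 and 5.46 CPM in KO against 3.23 to 5.43 CPM in NT. Efna1, too low for the edgeR test, had 0.690, 1.24 and 1.80 CPM in KO against 0.437 to 0.646 CPM in NT, without overlap.

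Of the 3 ephrin-B ligands 2 rose. Efnb1 (chromosome X, 99136130 to 99148991), the X-linked ephrin-B known for sorting cells at boundaries, had 5.21, 20.7 and 14.7 CPM in KO against 2.74, 4.55 and 4.03 CPM in NT. The groups did not overlap, and KO1 lay much nearer to NT than the other knockout clones. Its fitted difference was the largest of the 51 (1.83 ± 0.48; DESeq2 adjusted p = 0.00366; edgeR adjusted p = 0.119). Efnb2, the ephrin-B of arteries, had 40.1, 88.3 and 114 CPM in KO and 31.0, 46.1 and 41.6 CPM in NT. KO1 thus lay within the NT range (1.03 ± 0.35; DESeq2 adjusted p = 0.0317; edgeR adjusted p = 0.148). Other genes on the same strand cover 26.0% of the Efnb2 gene body, where reads could not be assigned to it alone. Efnb3 had 10.8, 10.8 and 6.97 CPM in KO, all below the 12.7, 11.9 and 15.5 CPM of NT, but was called by neither test (-0.49 ± 0.22; DESeq2 adjusted p = 0.182; edgeR adjusted p = 0.215).

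Epha2 (chromosome 4, 141301240 to 141329384), an EphA receptor known to be abundant in mouse pluripotent cells, was the steadiest of the genes that rose. It had 306, 311 and 319 CPM in KO against 215, 204 and 220.0 CPM in NT. It averaged 312 ± 6.68 CPM in KO and 213 ± 7.998 CPM in NT (SD, n = 3 each), and all KO clones, KO1 included, lay above all NT clones (0.55 ± 0.06; DESeq2 adjusted p = 3.02e-06). In edgeR it ranked as number 7 of 14664 genes by p, with an edgeR adjusted p = 0.0916. With no filter on low counts it was the 1 guidance gene that edgeR called (beside 0.621% of all genes).

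Among the other EphA receptors Epha7 rose and Epha4 fell. Epha7, a receptor of ephrin-A ligands, had 7.74, 18.8 and 20.7 CPM in KO and 4.92, 9.98 and 3.48 CPM in NT, with KO1 below NT2 (1.35 ± 0.48; DESeq2 adjusted p = 0.0380; edgeR adjusted p = 0.156). Epha4, which binds ligands of both ephrin classes, had 46.7, 38.7 and 22.8 CPM in KO against 70.5, 55.4 and 61.0 CPM in NT. Every KO clone lay below every NT clone, with KO3 lowest (-0.79 ± 0.24; DESeq2 adjusted p = 0.0280; edgeR adjusted p = 0.133). Epha8 had 3.76, 4.30 and 8.92 CPM in KO, all above the 1.94 to 3.20 CPM of NT, but was not called (1.09 ± 0.39; DESeq2 adjusted p = 0.0824; edgeR adjusted p = 0.156). Epha1 varied within both groups, with 30.3, 71.0 and 88.8 CPM in KO and 19.5, 51.6 and 38.2 CPM in NT (0.79 ± 0.44; DESeq2 adjusted p = 0.406). Epha3 and the kinase-inactive Epha10 were low, at 1.53 to 2.52 CPM and 0.690 to 1.99 CPM in KO against 0.834 to 2.06 CPM and 0.278 to 1.69 CPM in NT.

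No EphB receptor, the main partners of the ephrin-B ligands, was called from the 6 libraries. Ephb2 averaged 39.1 ± 5.21 CPM in KO and 37.1 ± 2.67 CPM in NT, and Ephb3 44.9 ± 9.95 CPM in KO and 54.5 ± 4.54 CPM in NT (SD, n = 3 each), with overlapping groups. Without KO1, where DESeq2 called 28.5% of all genes, both tests called Ephb3, at a log2 fold change of -0.48. Ephb4, the venous partner of Efnb2, had 41.9, 43.9 and 61.2 CPM in KO against 38.6, 41.1 and 41.5 CPM in NT, which did not overlap (0.28 ± 0.15; DESeq2 adjusted p = 0.357; edgeR adjusted p = 0.290). Ephb1 and the kinase-inactive Ephb6 were low, at 0.537 to 1.82 CPM and 1.87 to 2.91 CPM in KO and 0.626 to 0.807 CPM and 1.62 to 3.13 CPM in NT. The 5 EphB receptors summed to 129 to 146 CPM in KO and 131 to 139 CPM in NT. The 3 ephrin-B ligands summed to 56.1, 119.8 and 136 CPM in KO1, KO2 and KO3, against 46.4 to 62.6 CPM in NT.

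**Figure D3:**
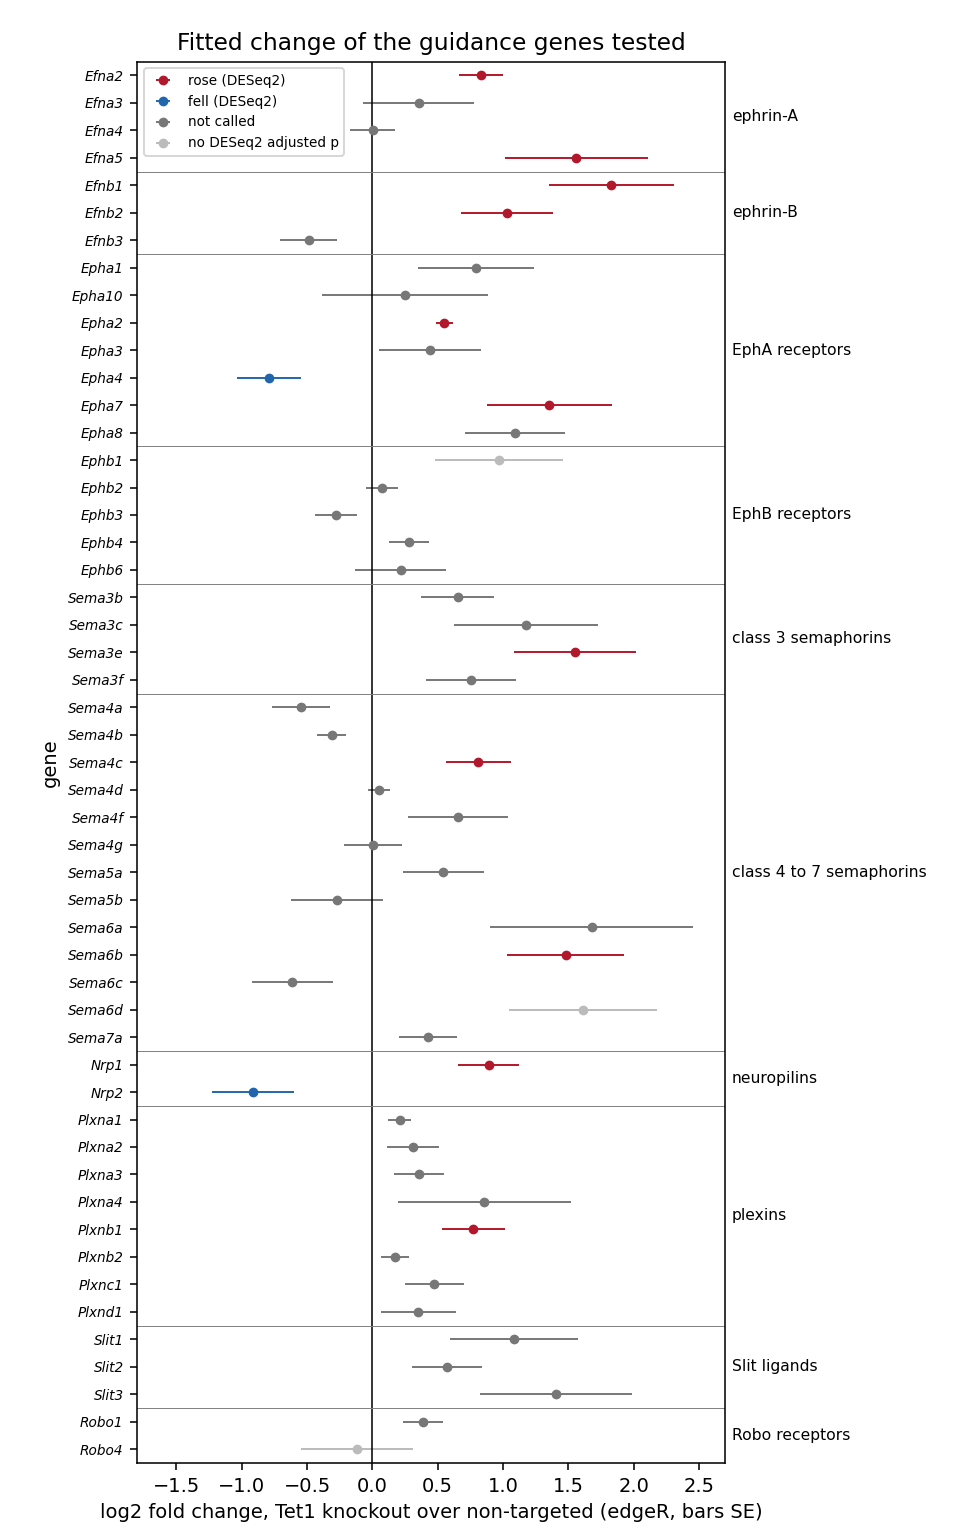
Log2 fold change of Tet1 knockout over non-targeted clones for the 51 tested guidance genes, from edgeR with SE as bars, grouped by family and coloured by the DESeq2 call. Points right of 0 are higher in KO (42 genes), and the 11 genes that rose lie in all families except the EphB, Slit and Robo genes.

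All 4 class 3 semaphorins had a positive log2 fold change, and Sema3e rose. Sema3e (chromosome 5, 14025276 to 14256689), a secreted semaphorin that binds Plxnd1 without a neuropilin, had 14.1, 33.8 and 56.3 CPM in KO against 8.88, 15.5 and 11.1 CPM in NT. KO1 lay below NT2, and the other knockout clones lay above all of NT (1.55 ± 0.47; DESeq2 adjusted p = 0.00877; edgeR adjusted p = 0.128). Without KO3 its log2 fold change was 1.01 and the DESeq2 adjusted p 0.154. Sema3c and Sema3f had log2 fold changes of 1.18 ± 0.55 and 0.75 ± 0.34, with KO1 within the NT range in both, and that of Sema3f was 0.30 without KO3. Sema3b had 3.14, 4.72 and 4.24 CPM in KO and 1.86 to 3.06 CPM in NT, without overlap and without a call (0.65 ± 0.28; DESeq2 adjusted p = 0.240; edgeR adjusted p = 0.204).

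Of the 13 membrane-attached semaphorins of classes 4 to 7, 9 lay above 0 and 4 below, and 2 rose. Sema4c, a ligand of Plxnb2, had 12.96, 19.6 and 23.9 CPM in KO against 8.55, 12.0 and 11.5 CPM in NT, with KO1 barely above NT2 (0.81 ± 0.25; DESeq2 adjusted p = 0.0408; edgeR adjusted p = 0.134). Sema6b, a transmembrane semaphorin, had 1.84, 3.39 and 4.96 CPM in KO and 0.888, 1.75 and 0.973 CPM in NT, again with KO1 just above NT2 (1.48 ± 0.45; DESeq2 adjusted p = 0.0477; edgeR adjusted p = 0.128). Sema6a, a ligand of class A plexins, spanned 16.2, 69.3 and 119.9 CPM in KO and 7.67, 41.1 and 14.9 CPM in NT. The groups overlapped, NT2 lying above KO1, and it was not called (1.68 ± 0.78; DESeq2 adjusted p = 0.265).

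Sema4b and Sema4a lay lower in every KO clone than in every NT clone without being called. Sema4b had 130.3, 115 and 97.0 CPM in KO against 138, 138 and 149 CPM in NT (-0.31 ± 0.11; DESeq2 adjusted p = 0.130; edgeR adjusted p = 0.160). Sema4a had 9.66, 5.71 and 8.92 CPM in KO against 10.98 to 12.6 CPM in NT (-0.54 ± 0.22; DESeq2 adjusted p = 0.141; edgeR adjusted p = 0.183). Sema6c gave 24.5, 12.8 and 10.2 CPM in KO and 21.3 to 25.9 CPM in NT, and Sema5b gave 39.9, 19.2 and 15.3 CPM in KO against 23.1 to 35.2 CPM in NT. In both, KO2 and KO3 lay below all of NT and KO1 did not. Sema4d, a ligand of Plxnb1, averaged 67.8 ± 2.71 CPM in KO and 65.5 ± 4.50 CPM in NT (SD, n = 3 each). Sema7a, the lipid-anchored ligand of Plxnc1, had 6.75, 6.37 and 9.85 CPM in KO against 5.28 to 6.13 CPM in NT, without overlap and without a call (0.42 ± 0.22; DESeq2 adjusted p = 0.334). The rare Sema6d, which has no DESeq2 adjusted p, had 0.843, 2.32 and 1.15 CPM in KO against 0.161 to 0.626 CPM in NT (1.61 ± 0.57; edgeR adjusted p = 0.154). Sema4f, Sema4g and Sema5a overlapped between groups, with log2 fold changes of 0.65 ± 0.38, 0.00 ± 0.22 and 0.54 ± 0.31.

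The neuropilins differed in opposite directions. Nrp1, the co-receptor best known for Sema3a and VEGF, had 4.68, 4.63 and 6.40 CPM in KO, against 3.15, 2.495 and 2.85 CPM in NT (0.89 ± 0.23; DESeq2 adjusted p = 0.0477; edgeR adjusted p = 0.119). Nrp2 (chromosome 1, 62703285 to 62818695), the co-receptor best known for Sema3f, had 67.6, 30.2 and 30.1 CPM in KO against 92.1, 71.4 and 78.0 CPM in NT (-0.92 ± 0.31; DESeq2 adjusted p = 0.0357; edgeR adjusted p = 0.148). Neither gene's groups overlapped, and in Nrp2 KO1 lay just under the lowest NT clone. Without KO1 the log2 fold change of Nrp2 was -1.42.

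All 8 plexins had a positive log2 fold change, and 1 rose. Plxnb1 (chromosome 9, 109095389 to 109119917), the receptor of Sema4d, had 56.0, 84.6 and 108 CPM in KO and 38.3, 54.6 and 52.5 CPM in NT (0.77 ± 0.24; DESeq2 adjusted p = 0.0346; edgeR adjusted p = 0.134). Its lowest KO clone was barely above its highest NT clone. Plxna1, a receptor that works with neuropilins, averaged 245 ± 24.3 CPM in KO and 212 ± 9.58 CPM in NT, and Plxnb2 144 ± 20.5 CPM in KO and 128 ± 3.30 CPM in NT (SD, n = 3 each), with overlapping groups. Plxnc1 had 5.06, 6.62 and 8.12 CPM in KO against 4.49 to 4.93 CPM in NT, without overlap and without a call (0.47 ± 0.22; DESeq2 adjusted p = 0.285; edgeR adjusted p = 0.234). Plxna2, Plxna3, Plxna4 and Plxnd1 had log2 fold changes of 0.31 ± 0.20, 0.36 ± 0.19, 0.86 ± 0.66 and 0.35 ± 0.29, with overlapping groups.

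No Slit or Robo gene was called from the 6 libraries. Slit3, a secreted Robo ligand, had 8.89, 15.9 and 47.0 CPM in KO and 6.21, 11.7 and 9.10 CPM in NT, with KO3 far above the rest (1.41 ± 0.58; DESeq2 adjusted p = 0.203; edgeR adjusted p = 0.189). Without KO3 the log2 fold change of Slit3 was 0.45. Slit2 and Slit1 had log2 fold changes of 0.57 ± 0.27 and 1.08 ± 0.49, or 0.32 and 0.64 without KO3, and in all 3 Slit genes KO1 lay within the NT range. Without KO1 both tests called Slit2 and Slit3, at log2 fold changes of 0.76 and 1.79, and neither called Slit1. In that fit DESeq2 called 28.5% of all genes. Robo1, a Slit receptor, had 25.5, 21.3 and 21.9 CPM in KO, each above the 19.4, 18.3 and 14.9 CPM of NT (0.39 ± 0.15; DESeq2 adjusted p = 0.156; edgeR adjusted p = 0.173). The endothelial receptor Robo4 was low, at 0.575 to 1.16 CPM in KO and 0.561 to 1.18 CPM in NT.

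Levels of different genes were set side by side per kilobase of exon, with exon lengths from GENCODE M21 and the limit that the counts also hold intron reads. On that scale Epha2 was the highest guidance gene in both groups, with 66.7 CPM per kilobase in KO and 45.6 in NT. Plxna1 was the highest plexin, at 27.1 CPM per kilobase in KO and 23.4 in NT. Sema4b was the highest semaphorin, at 20.2 in KO and 25.1 in NT. The highest ephrin was Efnb2 in KO, at 11.8 against 5.77 in NT, and Efna4 in NT, at 6.90 in KO and 6.89 in NT.

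Chromosome 6 holds 6 of the guidance genes, and the expressed genes around 4 of them were lower in KO2 and KO3. The 21 expressed genes nearest to Plxnd1 had a median log2 difference from the NT mean of -0.07, -0.85 and -0.93 in KO1, KO2 and KO3, and those nearest to Epha1 of 0.04, -0.60 and -0.71. Around Ephb6 the medians were -0.60 in KO2 and -0.64 in KO3, and around Plxna4 -0.41 in KO2 and -0.48 in KO3. The NT medians lay between -0.08 and 0.03 for these 4 genes. Plxnd1, the receptor of Sema3e, had 15.8, 7.03 and 11.5 CPM in KO against 7.91 to 9.73 CPM in NT, so that KO1 was highest and KO2 lowest. Epha1, described above, was higher in KO2 and KO3 than in KO1. None of the 6 genes was called by either test from the 6 libraries, and without them the median log2 fold change of the guidance genes stayed at 0.47.

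Genes that act with these receptors also gave calls. Over 5 lists of effectors, partners and other guidance cues, 14 of 101 genes with a DESeq2 adjusted p rose (13.9%, beside 5.77% of all genes) and 4 fell (3.96%, beside 3.35%). In edgeR 0 of the 106 listed genes tested passed (beside 0%). At an unadjusted p under 0.05, 30 were higher (28.3%, beside 14% of all genes) and 13 lower (12.3%, beside 10.8%). The median log2 fold change was 0.12, beside 0.00 over all genes. Among Eph and ephrin effectors 4 of 26 rose (15.4%, beside 5.77% of all genes) and 0 fell (beside 3.35%). Adam10, a protease that sheds ephrins, had 44.9, 44.9 and 45.7 CPM in KO against 31.6, 27.5 and 21.5 CPM in NT (0.75 ± 0.14; DESeq2 adjusted p = 0.00151). The ephrin-B adaptor Grip1 (1.56 ± 0.42; DESeq2 adjusted p = 0.00635) and the phosphatase Ptpn11 (0.44 ± 0.12; DESeq2 adjusted p = 0.0451) rose too.

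Among plexin and neuropilin partners and effectors 4 of 32 rose (12.5%, beside 5.77% of all genes) and 1 fell (3.1%, beside 3.35%). Erbb2, a receptor tyrosine kinase that pairs with class B plexins, had 24.8, 26.1 and 28.9 CPM in KO against 13.5, 13.8 and 15.8 CPM in NT (0.89 ± 0.13; DESeq2 adjusted p = 3.21e-05). Mical1, an oxidase that takes actin filaments apart, fell (-1.14 ± 0.32; DESeq2 adjusted p = 0.00896), and the exchange factor Farp1 rose (0.70 ± 0.19; DESeq2 adjusted p = 0.0211). Among Slit and Robo effectors 2 of 21 rose (9.52%, beside 5.77%) and 2 fell (9.52%, beside 3.35%). Srgap2, a GTPase-activating protein of the Robo pathway, had 59.8, 54.8 and 55.9 CPM in KO against 80.7, 77.2 and 80.1 CPM in NT (-0.48 ± 0.08; DESeq2 adjusted p = 0.000920). Its relative Srgap3 had 20.3, 11.7 and 12.2 CPM in KO against 30.7, 29.4 and 31.2 CPM in NT (-1.05 ± 0.22; DESeq2 adjusted p = 0.00101). Srgap3 lies on chromosome 6 between Plxna1 and Plxnd1, and the part of the lower chromosome 6 genes in its fall was not tested. The exchange factor Sos2 rose (0.84 ± 0.20; DESeq2 adjusted p = 0.00852).

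Among netrin, RGM and other cues 4 of 10 rose (40%, beside 5.77% of all genes) and 0 fell (beside 3.35%). They included the netrin and RGM receptor Neo1 (0.39 ± 0.09; DESeq2 adjusted p = 0.0211), the Wnt receptor Ryk (0.60 ± 0.16; DESeq2 adjusted p = 0.0206) and the RGM ligand Rgma (1.72 ± 0.57; DESeq2 adjusted p = 0.0235).

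Markers of other cells differed in the same clones. Of 32 tested fibroblast markers, listed because of the feeders, 31 lay above 0 (96.9%, beside 50.3% of all genes) and 16 rose (50%, beside 5.77%). Their median relative to the NT mean was 0.60, 0.78 and 1.89 in KO1, KO2 and KO3 and -0.33, 0.24 and 0.13 in NT1, NT2 and NT3. The 35 listed markers summed to 1314 to 2897 CPM in KO and 1014 to 1186 CPM in NT, and none was at 0 over the 6 libraries. Dcn, a defining fibroblast gene, had 4.45, 5.30 and 27.8 CPM in KO and 1.86, 3.62 and 2.78 CPM in NT. The pluripotency markers ran the other way. Their medians were -0.09, -0.43 and -0.74 in KO1, KO2 and KO3 and 0.10, -0.11 and 0.05 in NT1, NT2 and NT3. DESeq2 called 0 of the 20 (beside 9.12% of all genes). At an unadjusted edgeR p under 0.05, 4 were lower (20%, beside 10.8%). The part of either list in the guidance genes was not tested, and in bulk RNA fewer cells of a type and less RNA per cell cannot be told apart. Without KO3, the library with the highest fibroblast sum, the median log2 fold change of the guidance genes was 0.35.

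**Figure D4:**
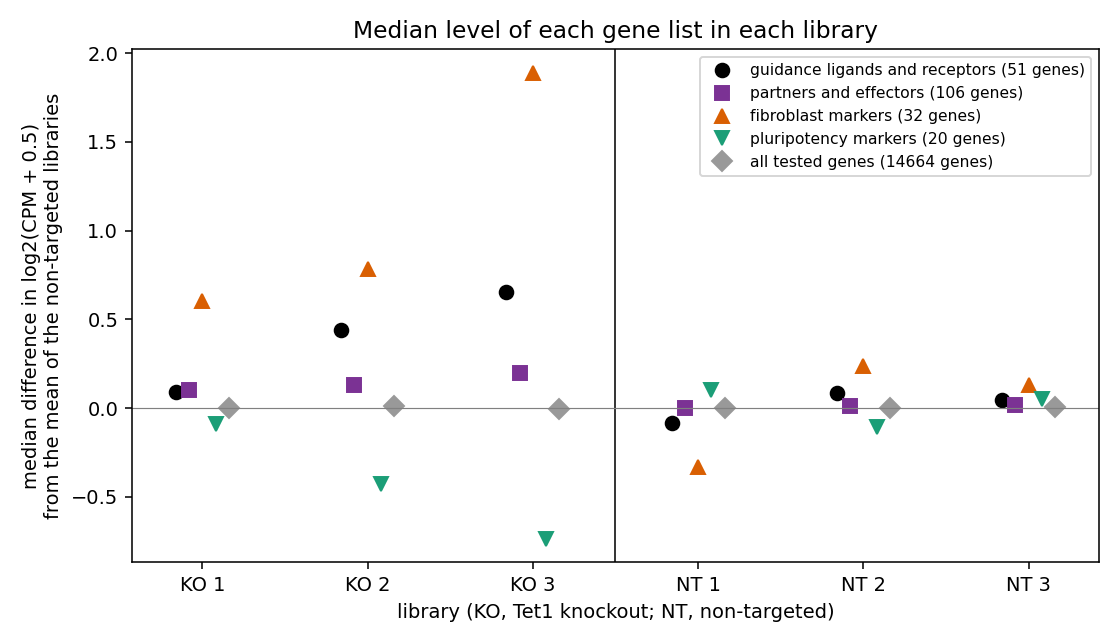
Median difference in log2(CPM + 0.5) from the NT mean for the guidance genes, their partners and effectors, fibroblast markers, pluripotency markers and all tested genes, in the 3 Tet1 knockout (KO) and 3 non-targeted (NT) libraries. In KO1, KO2 and KO3 the guidance genes stand at 0.09, 0.44 and 0.66 and the fibroblast markers at 0.60, 0.78 and 1.89.

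Markers of other lineages were set beside these values. Of 8 neural markers with a DESeq2 adjusted p, Msi1 rose and Pax6 fell. The listed neural markers summed to 328 to 515 CPM in KO and 275 to 304 CPM in NT. Of the 9 tested, however, 5 lay above 0 (55.6%, beside 50.3% of all genes), and the groups overlapped in 7. Their median log2 fold change was 0.07. Sox1 and Tubb3 had 0 reads in every library. Reads shared by several genes could not be assigned to 1 alone, so 0 reads does not show that a gene is silent. Endothelial and blood markers summed to 83.8 to 91.01 CPM in KO and 86.97 to 100.2 CPM in NT, Flt1 rose, and the endothelial cadherin Cdh5 did not exceed 0.288 CPM. Primitive streak markers summed to 17.9, 115.7 and 70.2 CPM in KO1, KO2 and KO3 and 12.1 to 24.1 CPM in NT. Of the 6 with a DESeq2 adjusted p, 3 rose (50%, beside 5.77% of all genes) and 0 fell. The median log2 fold change of the 9 tested was 1.72, beside 1.34 for the fibroblast markers. Of 12 primitive endoderm markers 5 rose (41.7%, beside 5.77% of all genes) and 0 fell. Their median log2 fold change was 0.79, and the sums were 730.5 to 1002 CPM in KO and 731 to 783 CPM in NT. The part of these lists in the guidance genes was not tested.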

How the data were processed

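Per the submitters' processing notes, HISAT2 2.1.0, featureCounts 1.5.3, DESeq2 1.18.1 and build mm10 were used. Per the file headers, the authors ran featureCounts 1.6.2 and deposited raw counts per gene, reverse-stranded, over whole gene bodies of GENCODE M15 (GRCm38.p5). No option for reads shared by several genes was set. Other genes on the same strand overlap 14 of the 52 guidance genes, over 0.0306% to 26.0% of the gene body.

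Counts were filtered with filterByExpr (minimum count 10, minimum total 15), TMM-scaled and tested by edgeR's quasi-likelihood method on group alone, with Benjamini-Hochberg adjustment over 14664 genes and a threshold of 0.05. The SE is the log2 fold change divided by the root of F. DESeq2 used the unfiltered counts with independent filtering. The scripts were tested on simulated data. Versions were R 4.3.3, edgeR 4.0.16, limma 3.58.1, DESeq2 1.42.0 and Python 3.11.15.

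The guidance genes and all lists were chosen with earlier results of these data known. Named by rule were every called guidance gene, every one with separate groups, in each family the 2 with the most CPM and the 2 with the smallest p, and up to 3 called genes of each partner list by smallest p. Of the 5 partner lists, 1 enters the joint counts and is not reported here by itself. The remaining guidance genes are given with values for completeness. With 3 clones a group, the clone number limits the precision.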

Additional observations from a re-analysis of the deposited data

How the results depend on the processing

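The count of called guidance genes depended on the tool and on which libraries were included. It was 0 in edgeR, 13 in DESeq2 and 1 with no filter on low counts, and 0 with RLE size factors, limma voom and the replicate block. With libraries left out it ran from 0 to 29 over edgeR and DESeq2. The median log2 fold change of the guidance genes stayed above 0 in every setting run, from 0.34 to 0.63. Over all genes the count was 0 in edgeR, 1247 in DESeq2, 159 with no filter, 3 with the replicate block and 1 in limma voom, and from 0 to 4404 with libraries left out. Partner and effector genes called were 0 in edgeR, 18 in DESeq2 and 4 with no filter, and from 0 to 43 with libraries left out. The cause of these moves was not tested. Deviations of same-numbered clones correlated at 0.46, 0.11 and -0.02, and KO3 correlated best with NT2, so the clones were taken to share only a number.

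Tet1 passed in DESeq2 (-1.84), in limma voom (-1.85), with no filter (-1.85) and with the replicate block (-1.86), and ran from -2.03 to -1.68 with libraries left out. Among the 35 named guidance genes tested in edgeR, 71 values crossed the threshold that edgeR's had missed, and 17 changed sign, in Efna4, Robo4 and Sema4d. Efna4 gave -0.0069 in DESeq2, -0.0087 in limma voom, -0.0093 with no filter and -0.0027 with the replicate block, and ran from -0.11 to 0.10 with libraries left out. Robo4 ran from -0.43 to 0.13 and Sema4d from -0.0096 to 0.092. Among genes without a call, leaving out KO3 changed the log2 fold change to 0.60 in Epha8, 0.47 in Epha1, 0.20 in Sema7a, 0.30 in Plxnc1, -0.30 in Efnb3 and -0.21 in Sema4b, leaving out KO2 to -0.34 in Sema4a, and leaving out NT1 to 0.49 in Epha1. Guidance genes with totals near 70 reads have few reads per library.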

Other observations

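The 11 genes of these names with under 60 reads in all add little to the families. Sema3a, the secreted semaphorin that signals through Nrp1, had 7, 6 and 22 reads in knockout replicates 1 to 3 and 5, 5 and 10 reads in the non-targeted replicates. Sema3d had 9, 7 and 16 reads against 7, 12 and 1, and Robo2 had 7, 6 and 16 against 7, 5 and 3. Epha5, Epha6, Robo3, Plxnb3 and Sema3g had totals of 35, 34, 30, 16 and 11 reads over the 6 libraries. The 3 antisense genes Plxna4os1, Plxna4os2 and Plxna4os3 had a total of 0.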
